A study of Mus musculus with 15 samples.

Results

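Described here are 10 genes of lipoprotein assembly and plasma lipoprotein handling in mouse liver: Apob, Mttp, Apoa1, Apoa2, Apoc3, Apoa5, Apoa4, Apoe, Lcat and Pltp. They were taken by gene symbol from a table of read counts for 26264 genes, and all 10 were found and tested. Liver RNA was sequenced in 15 mice, in 5 groups of 3 libraries, to study fatty liver disease (MASLD) induced by a high-fat diet. HFD-337 mice belong to the high-fat diet arm and carry the number of Gc337, an antisense agent against the protein kinase STK25. HFD-338 mice belong to the same arm and carry a number that the labels do not explain. HFD-Res is read here as the arm given resmetirom, which activates the beta receptor for thyroid hormone. HFD-NS and SD-NS are the high-fat diet and SD groups marked NS. The labels spell out neither SD nor NS, and give no strain, sex, age, dose or duration. They name separate animals only by number, so p-values measure the spread between these libraries.

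The liver makes most circulating apolipoproteins. Apolipoprotein B is the large scaffold of very-low-density lipoprotein (VLDL), and microsomal triglyceride transfer protein (Mttp) loads it with lipid in the endoplasmic reticulum. Apolipoproteins A-I and A-II form the protein shell of high-density lipoprotein (HDL), which Lcat matures by esterifying cholesterol and Pltp remodels by moving phospholipid between particles. Apolipoprotein C-III slows the clearance of triglyceride-rich particles, apolipoprotein A-V speeds it, and apolipoprotein E is the ligand through which remnants are taken up.

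Libraries held 3873903 to 9797743 counts, and 13189 genes were tested. Levels are CPM, counts divided by library totals that were scaled by trimmed mean of M values, values after ± are SDs over 3 libraries, and a gene is called to differ at an adjusted p under 0.05 in edgeR's quasi-likelihood test, with Benjamini-Hochberg adjustment over all genes tested. Stk25 ran from 14.6 to 19.1 CPM in HFD-337 and from 20.6 to 22.0 in HFD-338, below HFD-Res (37.7 to 46.9), HFD-NS (43.7 to 48.6) and SD-NS (47.8 to 53.3); its exons overlap Farp2, so the genes share reads. The liver label was met in every library: 9 of 10 hepatocyte markers were in the table, and their summed level was 84900 to 128000 CPM in HFD-337, 100000 to 107000 in HFD-338, 76400 to 83800 in HFD-Res, 104000 to 117000 in HFD-NS and 114000 to 138000 in SD-NS. Markers of bile duct epithelium and of stellate cells and fibroblasts differed more between groups. Those of bile duct epithelium (8 of 8 in the table) summed to 86.3 to 265 CPM in HFD-337, 600 to 758 in HFD-338, 85.3 to 101 in HFD-Res, 60.7 to 75.5 in HFD-NS and 63.2 to 71.2 in SD-NS. Those of stellate cells and fibroblasts (10 of 10) summed to 201 to 386 CPM in HFD-337, 868 to 1470 in HFD-338, 545 to 600 in HFD-Res, 482 to 577 in HFD-NS and 414 to 489 in SD-NS. In bulk tissue, fewer cells of a type and less RNA per cell cannot be told apart.

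The genes lie at 7 places in the mouse genome (build mm39). Apoa1 (chromosome 9, 46139928 to 46141767), Apoc3 (46144348 to 46146934, on the opposite strand), Apoa4 (46152142 to 46154756) and Apoa5 (46179906 to 46183219) form 1 cluster. Apob spans 39.2 kb of chromosome 12 (8027677 to 8066839) and has 13909 bases of exons, the longest of the 10. Mttp spans 53.6 kb of chromosome 3 (137795616 to 137849179). Apoa2 lies on chromosome 1 (171049133 to 171053948), Apoe on chromosome 7 (19430169 to 19433113), Lcat on chromosome 8 (106666183 to 106670034) and Pltp on chromosome 2 (164681438 to 164699628). Exons of Pltp share 27.4% of their length with Ctsa and those of Apoa2 share 15.3% with Tomm40l, and because reads were counted without strand and for each gene they touch, these pairs share reads. The exons of the other 8 genes overlap no other gene.

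Promoter sequence is shown for Apob and Mttp of VLDL assembly and Apoa1 and Apoa2 of HDL, the particle-forming genes on which the comparisons below turn. Each line holds the 250 bases before a transcript start in RefSeq, in build GRCm38.p6, whose coordinates differ from the mm39 coordinates above. Capitals mark exact matches, on either strand, to TATAAA (the TATA box), AGGTCA (a nuclear receptor element) or AAGTCCA (part of elements bound by HNF4A), or to 2 copies of AGGTCA in the same direction with any 1 base between them. Variants of these elements were not searched for, so a window without a match can still hold one.
Apob, chr12:7977427-7977676, plus strand: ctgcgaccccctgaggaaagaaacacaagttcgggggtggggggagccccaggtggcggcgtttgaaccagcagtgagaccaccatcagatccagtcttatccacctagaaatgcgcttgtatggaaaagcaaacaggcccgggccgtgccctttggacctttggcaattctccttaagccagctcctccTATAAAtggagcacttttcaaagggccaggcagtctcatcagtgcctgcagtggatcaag
Mttp, chr3:138143419-138143668, minus strand: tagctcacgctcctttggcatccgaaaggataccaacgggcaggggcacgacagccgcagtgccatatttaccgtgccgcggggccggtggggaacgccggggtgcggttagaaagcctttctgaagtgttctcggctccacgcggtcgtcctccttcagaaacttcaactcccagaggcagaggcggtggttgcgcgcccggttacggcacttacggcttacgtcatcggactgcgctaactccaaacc
Apoa1, chr9:46228380-46228629, plus strand: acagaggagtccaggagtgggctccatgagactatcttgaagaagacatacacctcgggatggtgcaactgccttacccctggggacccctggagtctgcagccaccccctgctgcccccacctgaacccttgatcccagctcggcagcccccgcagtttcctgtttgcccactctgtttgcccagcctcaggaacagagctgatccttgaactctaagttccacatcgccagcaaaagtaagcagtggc
Apoa2, chr1:171224804-171225053, plus strand: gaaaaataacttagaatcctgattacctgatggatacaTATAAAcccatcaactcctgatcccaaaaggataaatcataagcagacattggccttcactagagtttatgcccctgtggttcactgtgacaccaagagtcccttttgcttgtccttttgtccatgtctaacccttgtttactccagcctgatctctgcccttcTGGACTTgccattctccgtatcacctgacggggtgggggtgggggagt
Apoa2, second annotated start, chr1:171221314-171221563, plus strand: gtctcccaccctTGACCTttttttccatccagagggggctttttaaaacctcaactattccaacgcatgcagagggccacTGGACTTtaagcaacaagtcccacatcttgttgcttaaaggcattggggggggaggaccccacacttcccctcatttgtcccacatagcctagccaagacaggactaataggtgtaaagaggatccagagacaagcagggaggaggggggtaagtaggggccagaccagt
The Apob window holds TATAAA 60 to 55 bases before the start. The first Apoa2 window holds TATAAA 212 to 207 bases before its start and AAGTCCA, on the minus strand, 48 to 42 bases before it. The second Apoa2 window holds AGGTCA and AAGTCCA, both on the minus strand, 238 to 233 and 170 to 164 bases before the start. No exact match occurs in the Mttp or Apoa1 window. In mm39 the gene Trmt10a lies 29 bases upstream of Mttp, so the Mttp window can also cover Trmt10a. Among 32851 RefSeq windows of this length, 12.4% hold TATAAA, 14% AGGTCA, 3.36% AAGTCCA and 0.0335% the repeat. Of the other members, Apoa5 has TATAAA 31 to 26 bases before a start, 1 of 3 Apoe windows holds TATAAA on both strands, and the windows of Apoa4, Lcat and Pltp hold no match. The table of promoters has 13 windows for 9 of the 10 genes.

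Per unit of exon length, the apolipoprotein genes were among the most abundant transcripts of these livers. In TPM, which divides counts by exon length before scaling to a fixed total, Apoe averaged 19090 ± 1952 in HFD-337, 16570 ± 636 in HFD-338, 15790 ± 503 in HFD-Res, 22240 ± 191 in HFD-NS and 14770 ± 1334 in SD-NS. In HFD-NS livers Apoa2 followed at 19370 ± 1190 TPM and Apoa1 at 13980 ± 743, then Apoc3 at 3712 ± 280 and Apoa4 at 1976 ± 948. Apob stood at 1008 ± 92.1 TPM in HFD-NS, Apoa5 at 709 ± 78.3 and Lcat at 493 ± 41.1, with Mttp (163 ± 11.1) and Pltp (81.9 ± 8.74) lowest. Together the 10 genes held 6.64% to 7.79% of all TPM in HFD-337, 4.40% to 4.74% in HFD-338, 4.75% to 5.31% in HFD-Res, 6.08% to 6.52% in HFD-NS and 4.69% to 5.45% in SD-NS. The share was thus higher in every HFD-337 and HFD-NS library than in any library of the other 3 groups.

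**Figure D1:**
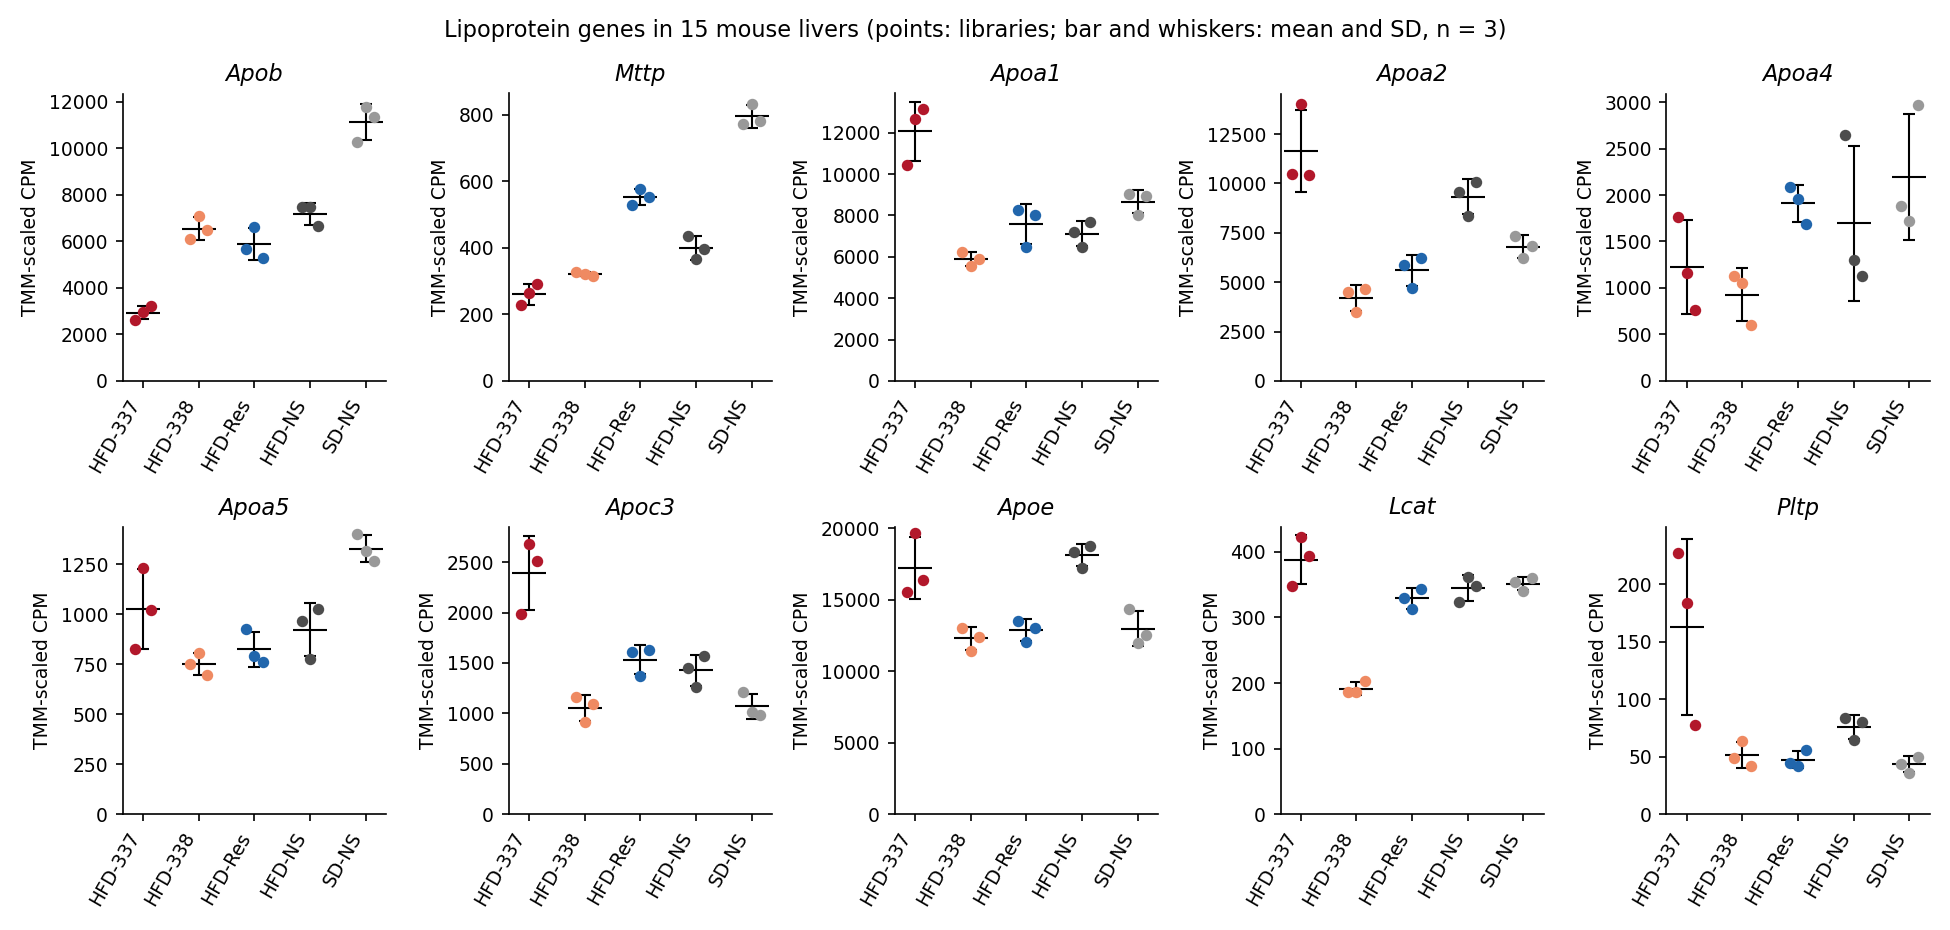
Level of each lipoprotein gene in TMM-scaled CPM (vertical axes, from 0) in the 15 libraries, by group; points are libraries, the bar is the group mean and whiskers are the SD of 3 libraries. Apob is lowest in HFD-337 and highest in SD-NS, Apoa1 and Apoc3 are highest in HFD-337, and Lcat is lowest in HFD-338.

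Apob, the scaffold of VLDL, had the largest fold change of the 10 members between HFD-337 and HFD-NS. Apob had 2627, 2981 and 3211 CPM in HFD-337, 6082, 7094 and 6473 in HFD-338, and 5673, 6629 and 5294 in HFD-Res. HFD-NS livers had 7456, 7470 and 6651 CPM, and SD-NS livers 10290, 11770 and 11330. Every HFD-337 library lay below, and every SD-NS library above, the libraries of all other groups. HFD-337 averaged 40.9% of HFD-NS (log2 fold change -1.29, SE 0.119, edgeR adjusted p = 1.44e-07). HFD-NS in turn averaged 64.6% of SD-NS (log2 fold change -0.63, SE 0.118, edgeR adjusted p = 0.00064). HFD-338 overlapped HFD-NS (log2 fold change -0.14, 95% interval -0.365 to 0.095, edgeR adjusted p = 0.395). HFD-Res did not overlap HFD-NS, but its log2 fold change of -0.29 did not pass the test (edgeR adjusted p = 0.116).

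Mttp, the lipid-loading partner of apolipoprotein B, took a separate level in each group. HFD-337 livers had 228, 263 and 290 CPM, HFD-338 livers 327, 322 and 314, and HFD-Res livers 530, 576 and 553. HFD-NS livers had 436, 366 and 397 CPM, and SD-NS livers 771, 833 and 779. No 2 groups overlapped, and the order was SD-NS, HFD-Res, HFD-NS, HFD-338 and HFD-337 from high to low. Against HFD-NS, Mttp fell in HFD-337 (log2 fold change -0.62, SE 0.101, edgeR adjusted p = 6.31e-05) and HFD-338 (-0.31, SE 0.1, adjusted p = 0.0192), and rose in HFD-Res (0.47, SE 0.1, adjusted p = 0.00324). HFD-NS averaged 50.3% of SD-NS (log2 fold change -0.99, SE 0.101, edgeR adjusted p = 1.68e-06). The HFD-338 call was lost on the TPM scale (adjusted p = 0.123) and without HFD-338 replicate 18 (0.06), HFD-338 replicate 19 (0.0572) or HFD-NS replicate 12 (0.0957). Mttp relative to Apob, as a ratio of TPM, was 0.259 ± 0.00517 in HFD-337, 0.144 ± 0.0124 in HFD-338, 0.277 ± 0.0258 in HFD-Res, 0.163 ± 0.0172 in HFD-NS and 0.209 ± 0.0091 in SD-NS, so the 2 genes did not keep 1 proportion across groups.

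The main HDL protein gene moved the other way from Apob in HFD-337. Apoa1 had 10450, 12640 and 13130 CPM in HFD-337, 6212, 5550 and 5881 in HFD-338, and 8254, 6472 and 8040 in HFD-Res, against 7189, 6465 and 7674 in HFD-NS and 9045, 8023 and 8922 in SD-NS. All 3 HFD-337 libraries lay above, and all 3 HFD-338 libraries below, every library of the other groups. HFD-337 averaged 169.8% of HFD-NS (log2 fold change 0.76, SE 0.124, edgeR adjusted p = 5.77e-05). The log2 fold change of HFD-338 was -0.27 and did not pass the test (95% interval -0.515 to -0.033, edgeR adjusted p = 0.0901). The values of HFD-Res (0.09, edgeR adjusted p = 0.693) and of HFD-NS against SD-NS (-0.29, 0.0913) did not pass either. The ratio of Apob to Apoa1 in TPM was 0.0173 ± 0.000553 in HFD-337, 0.0795 ± 0.0107 in HFD-338, 0.0561 ± 0.0144 in HFD-Res, 0.0724 ± 0.0103 in HFD-NS and 0.0918 ± 0.0118 in SD-NS.

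Apoa2, the second protein of HDL, separated HFD-338 and HFD-Res from HFD-NS. It had 10460, 14030 and 10440 CPM in HFD-337, 4516, 3472 and 4651 in HFD-338, and 5874, 4706 and 6216 in HFD-Res, against 9550, 8362 and 10080 in HFD-NS and 7356, 6208 and 6846 in SD-NS. HFD-338 and HFD-Res lay wholly below HFD-NS, and HFD-337 wholly above it. The gene fell in HFD-338 (log2 fold change -1.15, SE 0.149, edgeR adjusted p = 1.22e-05) and HFD-Res (-0.74, SE 0.148, adjusted p = 0.00196), while the value in HFD-337 did not pass (0.32, adjusted p = 0.0825; 0.0479 without HFD-337 replicate 23). It rose in HFD-NS against SD-NS (log2 fold change 0.46, SE 0.148, edgeR adjusted p = 0.0268), a call lost without HFD-NS replicate 12 (0.0649) or 16 (0.102), or SD-NS replicate 7 (0.124) or 8 (0.0685). Tomm40l, whose exons overlap Apoa2, fell in HFD-338 (log2 fold change -0.86, edgeR adjusted p = 0.00558), rose in HFD-337 (0.59, 0.0326) and stood at 309 ± 41.4 CPM in HFD-Res and 267 ± 75.7 in HFD-NS. Its part in the Apoa2 counts was not tested. The Apoa2 to Apoa1 ratio in TPM was 1.02 ± 0.169 in HFD-337, 0.754 ± 0.088 in HFD-338, 0.778 ± 0.0338 in HFD-Res, 1.38 ± 0.0185 in HFD-NS and 0.828 ± 0.0263 in SD-NS, highest in all 3 HFD-NS libraries.

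**Figure D2:**
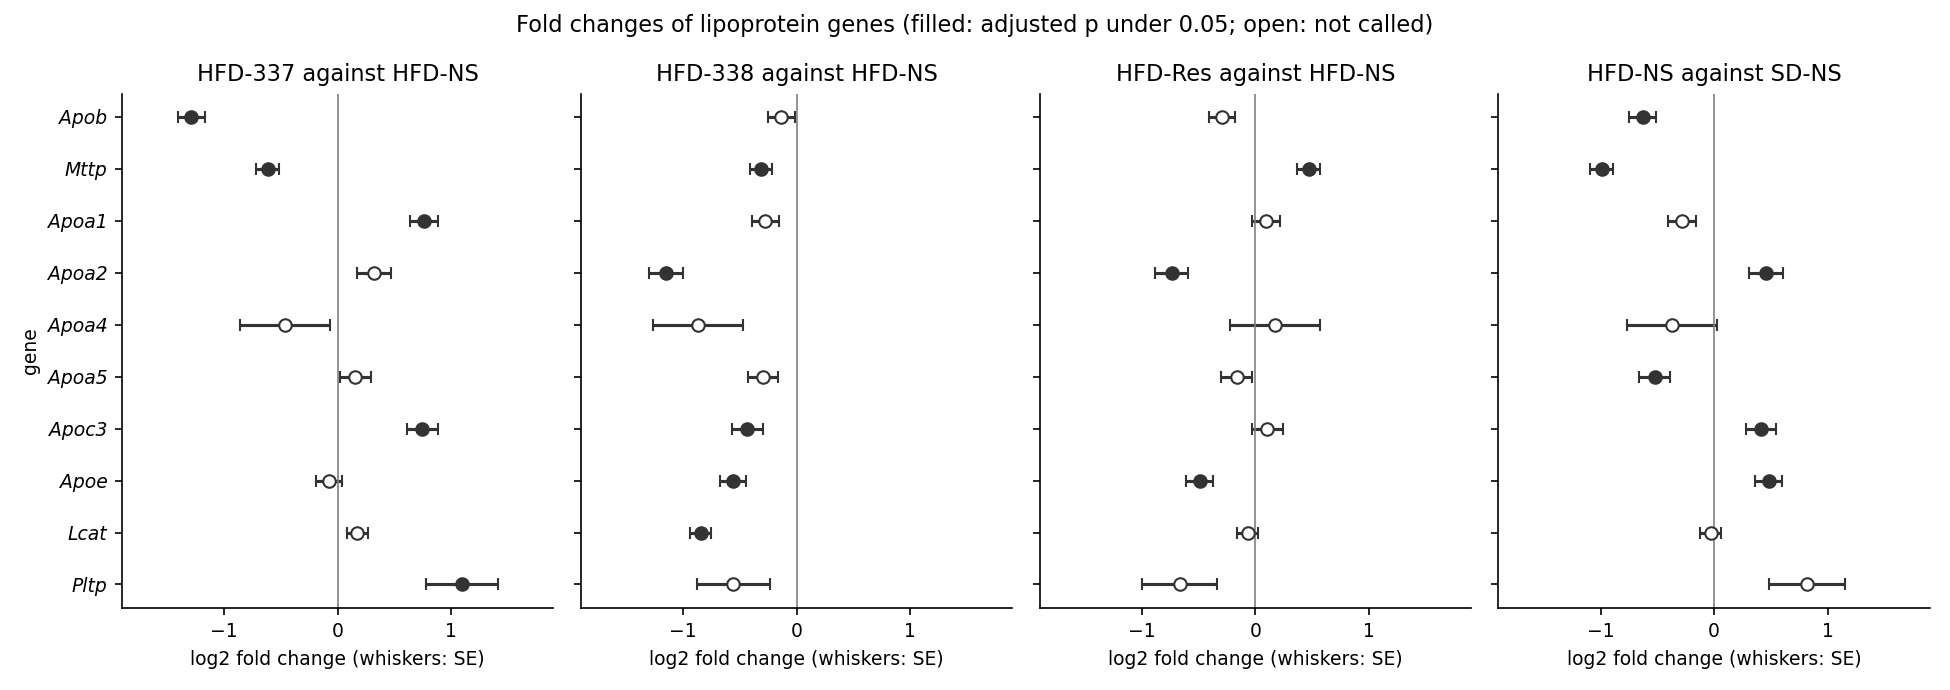
Fitted log2 fold change of each lipoprotein gene in 4 comparisons (horizontal axes; whiskers are SE; filled points have an edgeR adjusted p under 0.05, open points do not). In HFD-337 the VLDL genes Apob and Mttp lie left of 0 and Apoa1, Apoc3 and Pltp right of it, and in HFD-338 all 10 points lie left of 0, 5 of them filled.

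Apoc3, which slows triglyceride clearance, stood highest in HFD-337. It had 1983, 2681 and 2508 CPM in HFD-337, 1164, 913 and 1091 in HFD-338, and 1604, 1371 and 1628 in HFD-Res, against 1447, 1263 and 1567 in HFD-NS and 1213, 1011 and 985 in SD-NS. Every HFD-337 library lay above all others, and HFD-338 and SD-NS lay below HFD-NS without overlap. Apoc3 rose in HFD-337 (log2 fold change 0.75, SE 0.135, edgeR adjusted p = 0.000177) and fell in HFD-338 (-0.43, SE 0.134, adjusted p = 0.0166; 0.103 without HFD-338 replicate 18 and 0.0723 without HFD-NS replicate 16). The HFD-Res value was within the spread (0.11, edgeR adjusted p = 0.681). HFD-NS was above SD-NS (log2 fold change 0.41, SE 0.135, edgeR adjusted p = 0.0271), a call lost without HFD-NS replicate 12 (0.0638) or 16 (0.12), or SD-NS replicate 7 (0.108) or 8 (0.11).

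Apoa5, which speeds triglyceride clearance, was highest in SD-NS and differed little among the high-fat diet groups. HFD-337 livers had 829, 1230 and 1024 CPM, HFD-338 livers 752, 808 and 699, and HFD-Res livers 926, 790 and 761. HFD-NS livers had 967, 776 and 1028 CPM, and SD-NS livers 1402, 1318 and 1266. All SD-NS libraries lay above all others, and the 4 high-fat diet groups overlapped each other except HFD-337 and HFD-338. Apoa5 fell in HFD-NS against SD-NS (log2 fold change -0.52, SE 0.136, edgeR adjusted p = 0.00767). Against HFD-NS its log2 fold change was 0.15 in HFD-337 (edgeR adjusted p = 0.37), -0.30 in HFD-338 (0.098; 0.0341 without HFD-NS replicate 13) and -0.16 in HFD-Res (0.504).

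Within the chromosome 9 cluster, Apoc3 kept a near constant proportion to its neighbour Apoa1 in the high-fat diet groups. The ratio of Apoc3 to Apoa1 in TPM averaged 0.262 ± 0.0167 in HFD-337, 0.237 ± 0.0168 in HFD-338, 0.269 ± 0.0117 in HFD-Res and 0.265 ± 0.00603 in HFD-NS, and 0.164 ± 0.016 in SD-NS. It was higher in all 12 high-fat diet libraries (0.218 to 0.281) than in the 3 SD-NS libraries (0.146 to 0.178). The ratio of Apoa5 to Apoc3 was lowest in HFD-337 and highest in SD-NS: 0.126 ± 0.00788 in HFD-337, 0.213 ± 0.0411 in HFD-338, 0.159 ± 0.0186 in HFD-Res, 0.191 ± 0.00826 in HFD-NS and 0.368 ± 0.0238 in SD-NS. All SD-NS libraries (0.341 to 0.385) lay above all others, the highest of which was 0.261 in HFD-338. These ratios were chosen after their values were seen and carry no test.

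**Figure D3:**
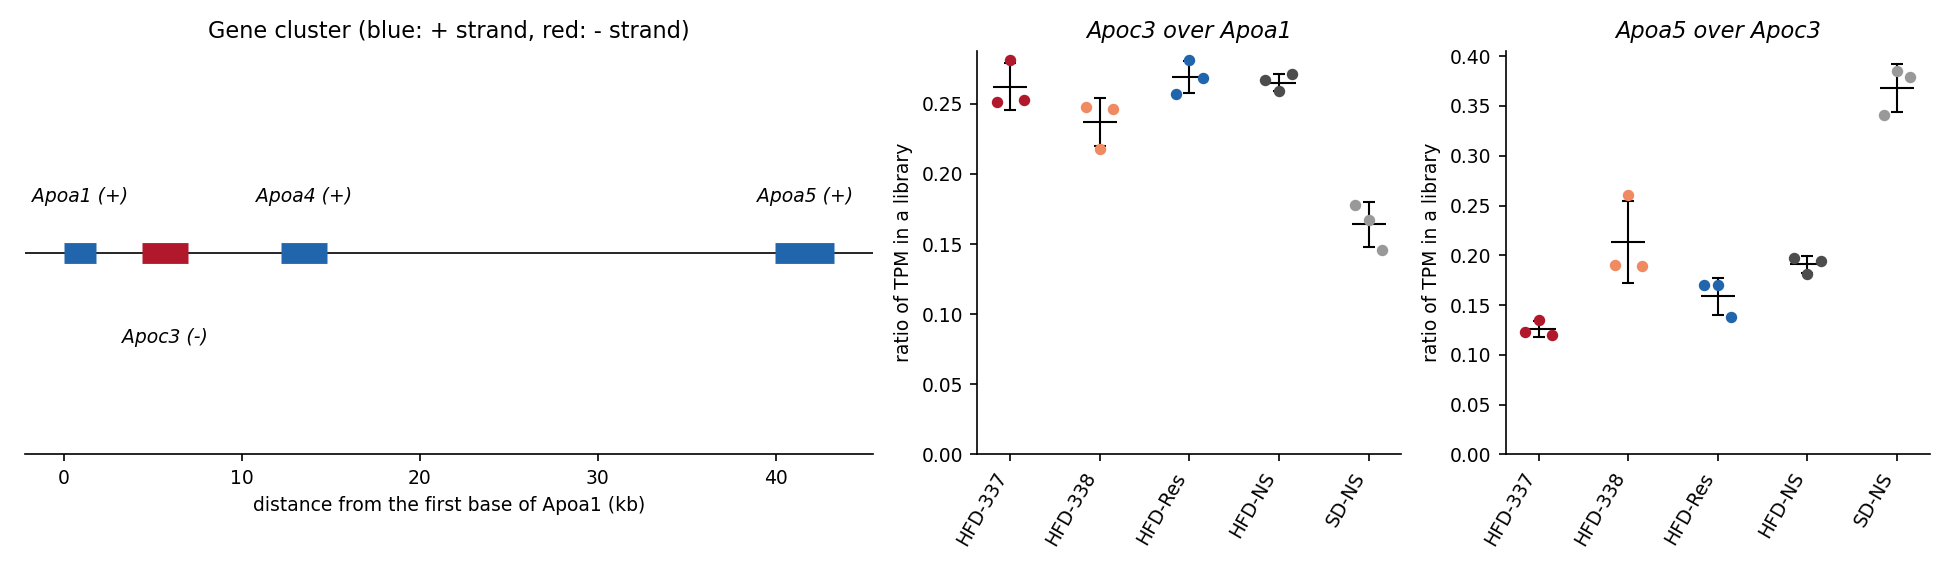
Left, the apolipoprotein cluster drawn to scale as distance in kb from the first base of Apoa1, coloured by strand; centre and right, the ratio of Apoc3 to Apoa1 and of Apoa5 to Apoc3 in TPM (axes from 0), with points for libraries, bars for group means and whiskers for the SD of 3 libraries. SD-NS stands apart, at 0.164 in the first ratio and 0.368 in the second.

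Apoa4, made mainly in intestine and induced in fatty mouse liver, was the most variable cluster member. Its levels were 1761, 1162 and 758 CPM in HFD-337, 1131, 1054 and 599 in HFD-338, and 2082, 1962 and 1687 in HFD-Res, against 2650, 1305 and 1129 in HFD-NS and 1884, 1721 and 2973 in SD-NS. The spread within HFD-NS was 49.1% of its mean, and HFD-337, HFD-338 and HFD-Res all overlapped HFD-NS. No comparison with HFD-NS passed edgeR's test: the log2 fold change was -0.47 in HFD-337 (adjusted p = 0.367), -0.87 in HFD-338 (0.116) and 0.17 in HFD-Res (0.843). HFD-NS against SD-NS did not pass either (-0.37, edgeR adjusted p = 0.533). The 95% interval in HFD-337 ran from -1.247 to 0.315. The value in HFD-337 was 0.0076 without HFD-NS replicate 12, and that in HFD-Res was -0.0495 without HFD-NS replicate 16. The 7 intestinal epithelium markers, which include Apobec1, a gene that mouse liver also expresses, summed to 240 to 276 CPM in HFD-337, 217 to 242 in HFD-338, 242 to 268 in HFD-Res, 297 to 332 in HFD-NS and 213 to 239 in SD-NS. Group means of Apobec1 ran from 20.7 CPM in HFD-NS to 42.8 in HFD-338, so most of each sum came from other markers. Of the 7, Cdx2 and Alpi were at 0 in every group, and 4 were tested: 1 rose and 1 fell in HFD-337, 2 rose and 1 fell in HFD-338, 1 rose and 1 fell in HFD-Res, and 1 rose and 0 fell in HFD-NS against SD-NS. Their part in the Apoa4 level was not tested.

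Apoe, the ligand for remnant uptake, was high in HFD-337 and HFD-NS and lower in the other groups. It had 15570, 19690 and 16390 CPM in HFD-337, 13070, 11430 and 12410 in HFD-338, and 13550, 12090 and 13070 in HFD-Res, against 18370, 17270 and 18750 in HFD-NS and 14400, 12020 and 12570 in SD-NS. All HFD-337 and HFD-NS libraries lay above all libraries of the other 3 groups. Apoe rose in HFD-NS against SD-NS (log2 fold change 0.48, SE 0.117, edgeR adjusted p = 0.005). It fell in HFD-338 (log2 fold change -0.56, SE 0.117, edgeR adjusted p = 0.00102) and HFD-Res (-0.49, SE 0.117, adjusted p = 0.00739). In HFD-337 the value was -0.07 (95% interval -0.303 to 0.154, edgeR adjusted p = 0.625), though on the TPM scale it was -0.23 and passed (adjusted p = 0.0393). Macrophages also make Apoe. The summed level of 15 Kupffer cell and macrophage markers, all in the table, had a median of 158 CPM in HFD-337, 625 in HFD-338, 259 in HFD-Res, 273 in HFD-NS and 264 in SD-NS, and the ranges of HFD-Res, HFD-NS and SD-NS overlapped. None of the 15 was at 0 in any group. Their part in its level was not tested.

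Lcat, the plasma enzyme that esterifies HDL cholesterol, was lowest in HFD-338. It had 347, 422 and 394 CPM in HFD-337, 186, 186 and 204 in HFD-338, and 330, 312 and 344 in HFD-Res, against 324, 362 and 348 in HFD-NS and 353, 340 and 360 in SD-NS. The 3 HFD-338 libraries lay far below the other 12, which ran from 312 to 422. HFD-338 averaged 55.6% of HFD-NS (log2 fold change -0.85, SE 0.0933, edgeR adjusted p = 2.22e-06). The other log2 fold changes were 0.17 in HFD-337 (edgeR adjusted p = 0.138; 0.0415 without HFD-337 replicate 23), -0.07 in HFD-Res (0.707) and -0.03 in HFD-NS against SD-NS (0.859).

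Pltp, which transfers phospholipid between lipoproteins, was the member with the largest spread within HFD-337 (an SD of 47.2% of its mean). It had 227, 184 and 77.7 CPM in HFD-337, 49.5, 64.1 and 41.8 in HFD-338, and 44.96, 42.3 and 55.8 in HFD-Res, against 83.5, 64.3 and 80.6 in HFD-NS and 43.8, 36.4 and 50.3 in SD-NS. In HFD-337, replicates 23 and 26 lay far above all other libraries, while replicate 27 lay within HFD-NS. The rise in HFD-337 passed (log2 fold change 1.10, SE 0.318, edgeR adjusted p = 0.0149), but the call was lost in a fit of those 2 groups alone (0.0756), on the TPM scale (0.0821), and without HFD-337 replicate 23 (log2 fold change 0.79, adjusted p = 0.062) or HFD-NS replicate 13 (0.0576). The values of HFD-338 (-0.56, edgeR adjusted p = 0.205), HFD-Res (-0.67, 0.239) and HFD-NS against SD-NS (0.82, 0.0943) did not pass. In a fit of each pair of groups alone these 3 did, at adjusted p of 0.0225, 0.00404 and 0.000515. Ctsa, which shares reads with Pltp and encodes a lysosomal protease, had 345, 288 and 187 CPM in HFD-337 replicates 23, 26 and 27, the same order as Pltp, against 180, 188 and 174.5 in HFD-NS (log2 fold change 0.60, adjusted p = 0.00413). Its part in the Pltp counts was not tested.

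Set against all genes tested, the share of members called in HFD-337 was near the background. There 3 rose and 2 fell of 10, where edgeR called 47.2% of all genes (24.4% rose and 22.8% fell), and the median log2 fold change was 0.16 over the members and 0.03 over all genes. In HFD-338, 0 rose and 5 fell of 10, where 36.8% of all genes were called (18.9% rose and 17.9% fell), with a member median of -0.495 and a median over all genes of 0.00. In HFD-Res, 1 rose and 2 fell, where 13% of all genes were called (6.22% rose and 6.74% fell), with medians of -0.115 over the members and 0.01 over all genes. HFD-NS against SD-NS had 3 rises and 3 falls, where 28.1% of all genes were called (12% rose and 16.1% fell), with medians of -0.16 and -0.02. All 4 comparisons share the HFD-NS libraries, so their values are not independent of each other.

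Set directly against HFD-338, HFD-337 livers had 7 members higher and 2 lower, where 58.4% of all genes tested were called (28.8% rose and 29.6% fell). The shares varied with summed exon length. Under 1 kb, where Apoa1, Apoa2 and Apoc3 lie, 51.1% of genes rose and 12.5% fell. At 1 to 2 kb, where Apoa4, Apoe, Lcat and Pltp lie, 40.4% rose and 19.9% fell. At 2 to 4 kb, where Apoa5 lies, 28.4% rose and 28.4% fell. At 4 to 8 kb, where Mttp lies, 17.4% rose and 39.9% fell. At 8 kb or more, where Apob lies, 16.4% rose and 44.8% fell. The part of length in this split was not tested. Pltp (log2 fold change 1.66, edgeR adjusted p = 0.00119), Apoa2 (1.47, 2.94e-07), Apoc3 (1.18, 1.12e-06), Apoa1 (1.04, 1.69e-06) and Lcat (1.02, 9.65e-08) had the largest rises, with smaller ones in Apoe (0.48, 0.00166) and Apoa5 (0.45, 0.00859). Apob (-1.16, edgeR adjusted p = 3.13e-07) and Mttp (-0.30, 0.0149) were lower. The calls of Apoe (adjusted p = 0.0525) and Apoa5 (0.303) were lost on the TPM scale, that of Apoa5 also without HFD-337 replicate 26 (0.0652), and that of Mttp without HFD-337 replicate 23 (0.0838).

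Against HFD-Res, 6 members rose and 2 fell in HFD-337, where 47.6% of all genes were called (24.3% rose and 23.3% fell). Here too the shares varied with exon length: 48.3% rose and 7.4% fell under 1 kb. At 1 to 2 kb 32.3% rose and 14.9% fell, and at 2 to 4 kb 23.4% and 22.6%. At 4 to 8 kb 15.6% rose and 31.8% fell, and at 8 kb or more 13.4% and 37.9%. Pltp (log2 fold change 1.77, edgeR adjusted p = 0.00116) and Apoa2 (1.06, 1.21e-05) had the largest rises, and Mttp (-1.09, 1.17e-07) and Apob (-0.9965, 1.84e-06) were the falls. The Lcat rise (0.24, edgeR adjusted p = 0.0412) was lost under most other settings and without HFD-337 replicate 26 (0.174) or 27 (0.13), or HFD-Res replicate 29 (0.0866), 30 (0.139) or 34 (0.0505). In HFD-338 against HFD-Res, 0 members rose and 5 fell, where 43.1% of all genes were called (22.2% rose and 20.9% fell), led by Mttp (log2 fold change -0.78, edgeR adjusted p = 6.85e-06), Lcat (-0.78, 3.23e-06) and Apoc3 (-0.54, 0.00346). The falls of Apoa1 (-0.37, 0.0216) and Apoa2 (-0.41, 0.0314) were both lost on the TPM scale and without HFD-338 replicate 18 or HFD-Res replicate 29 or 34, which left 3.

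Relative to SD-NS, the VLDL genes were low in every high-fat diet group. Apob fell with HFD-337 (log2 fold change -1.92, SE 0.122, edgeR adjusted p = 4.3e-10), HFD-338 (-0.77, SE 0.118, 3.98e-05), HFD-Res (-0.92, SE 0.119, 9.77e-06) and HFD-NS, as above. Mttp fell by 1.61 on the log2 scale in HFD-337 (edgeR adjusted p = 4.56e-10), by 1.31 in HFD-338 (1.76e-08) and by 0.52 in HFD-Res (0.000604). Of all genes with 8 kb or more of exons, where Apob lies, 49.4% fell and 12.4% rose in HFD-337. In HFD-338 37.6% fell and 18.6% rose, and in HFD-Res 27.8% and 7.06%. At 4 to 8 kb, where Mttp lies, 36.8% fell and 17.3% rose in HFD-337. In HFD-338 28.7% fell and 23.2% rose there, and in HFD-Res 20.1% and 10.1%. The part of length in these falls was not tested. Over all members, 5 rose and 3 fell in HFD-337 (55.2% of all genes called, 28.1% rising and 27.1% falling), 0 rose and 7 fell in HFD-338 (48.7%, 23.0% rising and 25.7% falling), and 1 rose and 3 fell in HFD-Res (26.9%, 11.5% rising and 15.4% falling). The rise in HFD-Res was that of Apoc3 (log2 fold change 0.52, edgeR adjusted p = 0.00698). Apoa4 passed the test in 1 of the 10 comparisons, HFD-338 against SD-NS (-1.24, edgeR adjusted p = 0.0255), and lost it on the TPM scale (0.0779) and without HFD-338 replicate 18 (0.0531), HFD-338 replicate 19 (0.0917) or SD-NS replicate 8 (0.0864).

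In HFD-337 against HFD-NS, the share of genes that rose was higher among genes with short exons, and the members did not all follow their length bin. Of 946 tested genes with under 1 kb of exons, among them Apoa1, Apoa2 and Apoc3, 48.5% rose and 5.81% fell in HFD-337 against HFD-NS, with a median log2 fold change of 0.51. Of 2739 genes with 1 to 2 kb, 31.9% rose and 15% fell, with a median of 0.19, and the 4 members among them ran from Apoa4 (-0.47) and Apoe (-0.07) to Lcat (0.17) and Pltp (1.10). In the 2 to 4 kb bin, which holds Apoa5 (0.15), 23.6% rose and 22.5% fell. Of 708 genes with 8 kb or more, among them Apob, 14.7% rose and 35.7% fell, with a median of -0.21. In the 4 to 8 kb bin, which holds Mttp, 15.6% rose and 30.7% fell. Apoa1 (0.76) and Apoc3 (0.75) thus lay 0.2 to 0.3 above the median of their bin, Apoa2 (0.32) below it, and Apob (-1.29) far below the median of its bin. HFD-NS against SD-NS had a weaker gradient: 16.3% rose and 9.94% fell under 1 kb, against 5.23% and 32.1% at 8 kb or more. In HFD-338 and HFD-Res against HFD-NS the bin medians stayed between -0.08 and 0.07. The part of length in the member values was not tested.

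**Figure D4:**
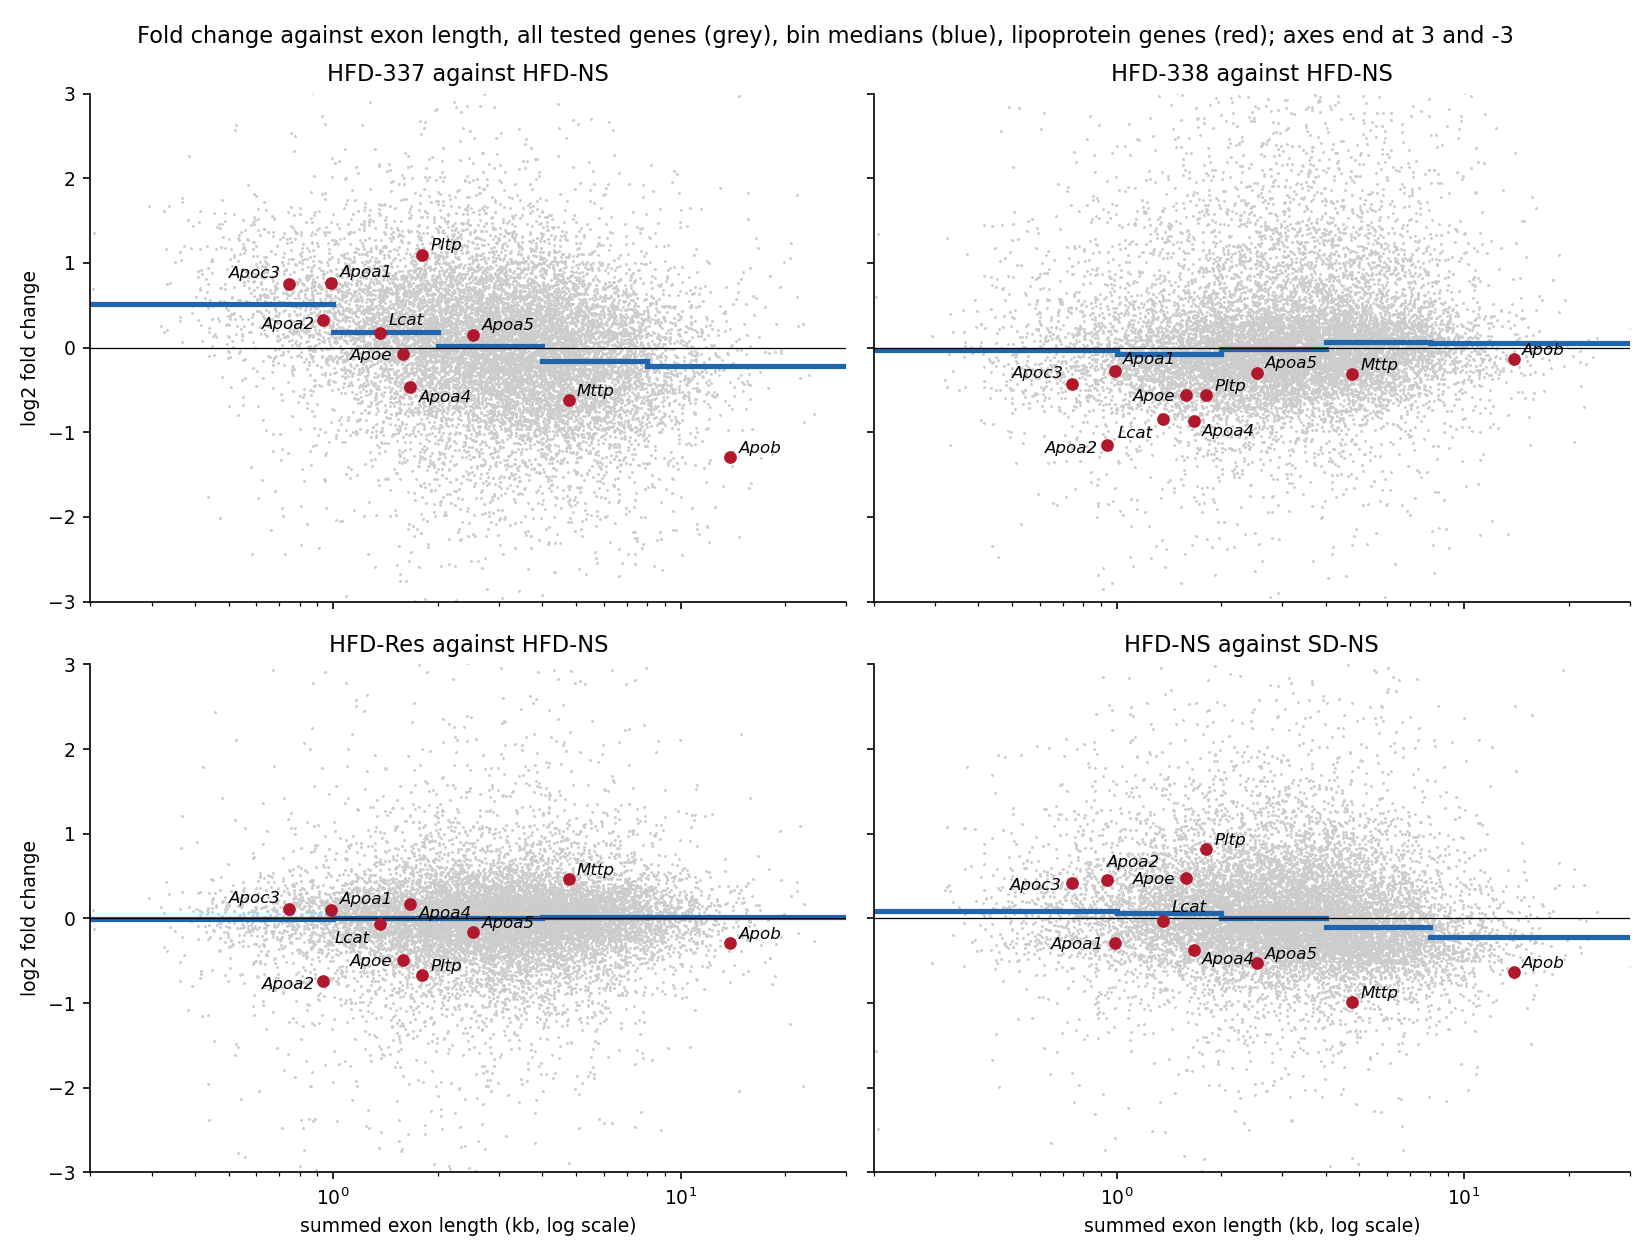
Log2 fold change (vertical axes, which end at 3 and -3; genes beyond are not drawn) against summed exon length in kb (horizontal log axes) for all tested genes in grey, with the 10 lipoprotein genes in red and the median of each length bin as a blue line. In HFD-337 against HFD-NS the blue line steps down from 0.51 under 1 kb to -0.21 at 8 kb and above, and in HFD-338 and HFD-Res against HFD-NS it stays near 0.

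Among the other genes that load, fold and export VLDL, calls in HFD-337 were split between 10 rises and 13 falls of 35 tested, where 24.4% of all genes rose and 22.8% fell. Sort1, a sorting receptor that binds apolipoprotein B, had a mean of 13.9 CPM in HFD-337 livers, 17.0 in HFD-338 livers and 23.1 in HFD-Res livers, against 4.91 in HFD-NS livers, and rose in all 3 (log2 fold changes 1.46, 1.79 and 2.22; edgeR adjusted p = 0.000486, 8.86e-05 and 3.1e-05). Sort1 was itself lower in HFD-NS than in SD-NS, where its mean was 10.9 CPM (log2 fold change -1.19, edgeR adjusted p = 0.00651). Tm6sf2, needed for VLDL lipidation, rose in HFD-337 (log2 fold change 0.77, edgeR adjusted p = 0.000585) and HFD-Res (0.67, 0.00778). The ER export protein Mia2 fell in HFD-337 (-1.18, edgeR adjusted p = 2.36e-07). Its mean was 195 CPM in HFD-337 livers and 236 in HFD-338 livers, against 444 in HFD-NS livers. The lipid hydrolase Ces1d, which supplies lipid for VLDL, fell in HFD-337 (-1.13, edgeR adjusted p = 9.8e-05) and HFD-338 (-1.58, 8.8e-06). HFD-338 had 2 rises and 11 falls (18.9% and 17.9% of all genes), HFD-Res 4 and 1 (6.22% and 6.74%), and HFD-NS against SD-NS 6 and 12 (12% and 16.1%). In that last comparison Dgat2, a triglyceride synthase, rose (1.08, edgeR adjusted p = 1.21e-05) and Sec23a, a COPII coat subunit, fell (-0.85, 9.4e-06).

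The other apolipoprotein genes had 8 rises and 1 fall of 14 tested in HFD-337, where 24.4% of all genes rose and 22.8% fell, and their median log2 fold change was 0.59, against 0.03 over all genes. Genes of this list are not all under 1 kb of exons. Over all genes tested, the median in this comparison was 0.51 under 1 kb, where 48.5% rose. It was 0.19 at 1 to 2 kb, where 31.9% rose, and 0.02 at 2 to 4 kb, where 23.6% rose. The part of exon length in the list values was not tested. Apol10b, Apol9a and Apol9b had the largest rises (2.82, 2.03 and 2.00; edgeR adjusted p = 0.000218, 1.82e-08 and 1.02e-05), although Apol9a and Apol9b are near-identical copies that can share reads. Apol10b was scarce, with HFD-NS libraries averaging 0.59 CPM and HFD-337 libraries 4.54. Whether the products of these Apol genes are carried on plasma lipoproteins was not tested. Apoc1, Apoc2 and Apoc4, which lie near Apoe and were picked after their values were seen, also rose in HFD-337 (log2 fold changes 0.77, 1.17 and 1.10), where Apoe itself was at -0.07. In HFD-Res, Apoc1 (-0.76, edgeR adjusted p = 0.000848) and Apoc2 (-0.68, 0.00232) fell with Apoe, and Apof, a lipid transfer inhibitor, rose (0.64, 9.45e-05). The list had 2 rises and 3 falls in HFD-338 (18.9% and 17.9% of all genes), with Clu at 0.67 (edgeR adjusted p = 0.000317), and 2 and 4 in HFD-Res (6.22% and 6.74%). It had 4 and 1 in HFD-NS against SD-NS (12% and 16.1%), where Apom, a carrier of sphingosine-1-phosphate on HDL, was the fall (-1.32, 0.00579).

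Of 21 genes of HDL formation and plasma remodelling, 2 rose and 9 fell in HFD-337, where 24.4% of all genes rose and 22.8% fell, and 2 rose and 8 fell in HFD-338, where 18.9% rose and 17.9% fell. In HFD-Res 1 rose and 2 fell (6.22% and 6.74% of all genes), and in HFD-NS against SD-NS 7 rose and 5 fell (12% and 16.1%). Markers of sinusoidal endothelium, a source of some genes in this list and among the receptors, fell in the same groups: of 10, 0 rose and 10 fell in HFD-337 (median log2 fold change -1.62) and 0 rose and 7 fell in HFD-338 (-0.87). Their summed level was 91.2 to 115 CPM in HFD-337, 115 to 207 in HFD-338 and 276 to 306 in HFD-Res, against 253 to 303 in HFD-NS and 208 to 340 in SD-NS, and their part in the list values was not tested. Angptl8, an inhibitor of lipoprotein lipase, rose in HFD-337 (log2 fold change 1.84, edgeR adjusted p = 0.000102). Lpl, the lipase itself, had a mean of 324 CPM in HFD-338 livers, against 38.4 in HFD-NS livers (log2 fold change 3.08, edgeR adjusted p = 0.00011). Pcsk6 fell in HFD-337 (-1.42, edgeR adjusted p = 1.06e-08) and HFD-338 (-1.51, 1.57e-08). Lipg, the endothelial lipase of HDL, fell in HFD-337 (-1.14, edgeR adjusted p = 0.00151) and HFD-338 (-1.26, 0.000817), and rose in HFD-Res (1.11, 0.00218).

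Receptors for lipoproteins and their regulators had 2 rises and 8 falls of 17 tested in HFD-337, where 24.4% of all genes rose and 22.8% fell and all 10 sinusoidal endothelium markers fell. Stab1 and Stab2 belong to both lists and are counted in both. HFD-338 had 1 rise and 6 falls (18.9% and 17.9% of all genes), HFD-Res 2 and 4 (6.22% and 6.74%), and HFD-NS against SD-NS 4 and 1 (12% and 16.1%). Vldlr fell in HFD-337 (log2 fold change -2.26, edgeR adjusted p = 0.0014), HFD-338 (-1.80, 0.00562) and HFD-Res (-2.50, 0.00418). These falls share the HFD-NS level of Vldlr, a mean of 15.3 CPM against 4.36 in SD-NS (log2 fold change 1.79, edgeR adjusted p = 0.0117). Sulf2, which trims heparan sulphate on remnant receptors, fell in HFD-Res (-3.06, edgeR adjusted p = 1.52e-07), HFD-337 (-2.12, 6.82e-07) and HFD-338 (-0.70, 0.0076). The HFD-338 call of Sulf2 was lost on the TPM scale (adjusted p = 0.0731). Cd36, a fatty acid and lipoprotein scavenger receptor, rose in HFD-NS against SD-NS (2.62, edgeR adjusted p = 1.76e-05).

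Transcription factors that act on apolipoprotein genes had 0 rises and 14 falls of 31 tested in HFD-338, where 18.9% of all genes rose and 17.9% fell, with a median log2 fold change of -0.37. In HFD-337, 10 rose and 9 fell, where 24.4% of all genes rose and 22.8% fell. Hnf4a, a nuclear receptor that drives many liver apolipoprotein genes, had a mean of 390 CPM in HFD-337 livers and 374.5 in HFD-338 livers, against 651 in HFD-NS livers (log2 fold changes -0.74 and -0.80; edgeR adjusted p = 2.15e-05 and 1.94e-05). It is outside the rule for named genes and was picked after its values were seen. Ppara, a fatty acid sensor, fell in HFD-337 (-1.14, edgeR adjusted p = 4.72e-07) and HFD-338 (-0.87, 1.72e-05). Mlxipl, a glucose-responsive factor, and Esrra rose in HFD-337 (1.24 and 1.39; edgeR adjusted p = 6.27e-07 and 3.03e-07). In HFD-Res 4 rose and 0 fell (6.22% and 6.74% of all genes), with Srebf2, the sterol-responsive factor, at 0.97 (edgeR adjusted p = 1.97e-05). HFD-NS against SD-NS had 7 rises and 6 falls (12% and 16.1% of all genes), with Nr1d1, a clock repressor, the largest rise (2.75, edgeR adjusted p = 7.66e-07).

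**Figure D5:**
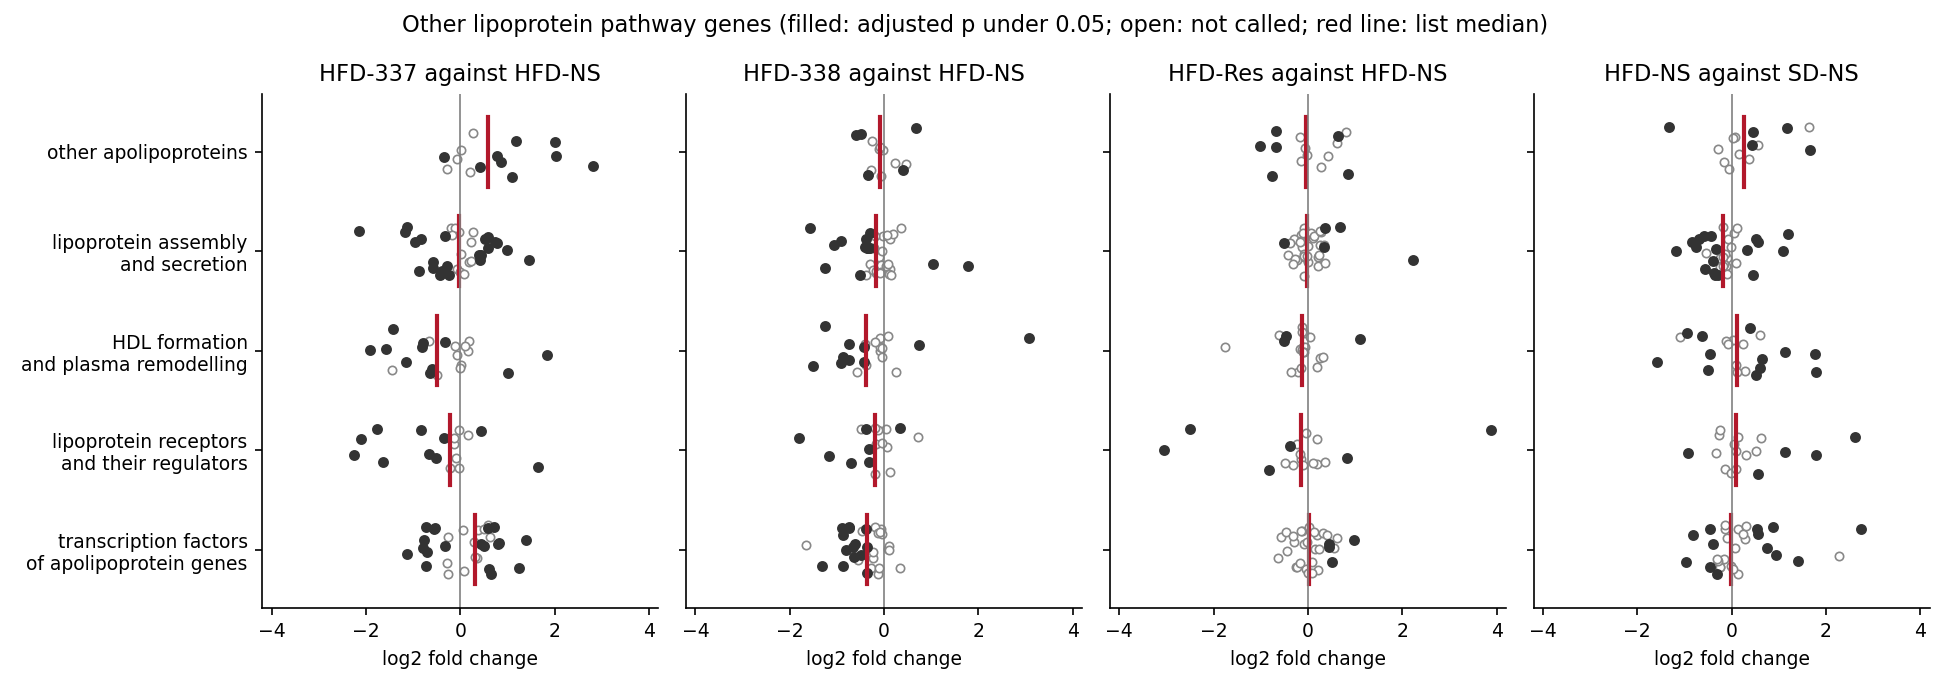
Log2 fold change (horizontal axes) of the other lipoprotein pathway genes in 5 lists (rows, with vertical scatter for legibility) and 4 comparisons; filled points have an edgeR adjusted p under 0.05, open points do not, and the red line is the median of the list. The median of the other apolipoproteins, a list that includes Apol genes, is 0.59 in HFD-337. That of the transcription factors is -0.37 in HFD-338, where all 14 filled points lie left of 0.

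The members did not share 1 pattern over the 5 groups. Likeness was measured as the root mean square difference between 2 genes' log2 group means, each centred on its own mean, over 5 groups. Among pairs of members, Apoa1 and Lcat (0.23), Apoa1 and Apoc3 (0.27) and Apoa5 and Lcat (0.28) were closest, and Apob and Pltp (1.27) farthest apart. Among 12083 other genes, those nearest to Apob were Mfsd4a (0.0524), Mob1b (0.06) and Tmem170 (0.0659). Those nearest to Mttp were Dcaf6 (0.0714), Foxo1 (0.075) and Tmem120a (0.0928). Nearest to Apoa1 were Prkar2a (0.021), Zfp598 (0.0293) and Stk16 (0.0305), and to Apoe Akr7a5 (0.0234) and Pts (0.057). For the other members the nearest genes were Tiam2 (Apoa2), Gsk3a (Apoa4), Tmem216 (Apoa5), Mzt2 (Apoc3), Pskh1 (Lcat) and Adh6-ps1 (Pltp), at 0.0334 to 0.1037.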

How the data were processed

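Per the labels' protocols, liver RNA was isolated by TRIzol-chloroform extraction and poly(A) selection preceded library preparation. Mouse build mm39 and the tools featureCounts 2.0.1, STAR 2.7.10b, Bowtie 1.3.1 (whose role is not stated) and Trim Galore 0.6.10 are listed in the submitters' processing notes. Per the file headers, the authors counted exonic reads by gene without regard to strand, and a read that overlaps several genes adds a count to each. The authors also deposited TPM, of which 12 columns equal TPM recomputed from counts and exon lengths within 0.001, and 3 columns not tied to a library were not used.

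Libraries were grouped by their titles. They held 3873903 to 9797743 counts. Genes kept by filterByExpr (13189 of 26264) were scaled by TMM and fitted in 1 model of the 15 libraries, using R 4.3.3 and edgeR 4.0.16 (robust quasi-likelihood test, 10 comparisons, Benjamini-Hochberg adjustment over all genes tested, call at 0.05). The common biological coefficient of variation was 0.134. The procedure was tested on simulated counts. No 2 libraries of a group agreed within sampling noise, with chi-square per degree of freedom of 5.46 to 32.3. Alternatives were RLE factors, TMM on genes spanning under 50 kb, fits of 2 groups, DESeq2 1.42.0, testing without a low-count filter, voom quality weights (limma 3.58.1), limma on log2 of recomputed or deposited TPM plus 1 (or plus 0.1 for recomputed TPM; keeping genes that reach a TPM of 1 in 3 libraries or more), and leaving out each library.

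The members and lists were chosen with earlier results of these data known. The named genes are the members, and from each list and comparison with HFD-NS or of HFD-NS with SD-NS up to 3 called genes per direction with the largest fold change, of at least 1 CPM and without overlap between groups, of which the text gives a part. Overlapping genes and the 3 nearest genes of each member were also eligible. Some genes that this rule names are not reported here. Promoter sequences are from RefSeq on GRCm38.p6, matched by symbol.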

Additional observations from a re-analysis of the deposited data

How the results depend on the processing

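Over all alternatives, 47 of 60 called member results and 77 of 92 called pathway genes kept their call and direction, and the other 13 and 15 kept their direction but lost the call under at least 1 setting. Of the 22 uncalled member values in the comparisons with HFD-NS, of HFD-NS with SD-NS and of HFD-337 with HFD-338, 11 stayed so with their direction under every setting. Uncalled values of the other 5 comparisons were not recomputed. The 5 members called in HFD-338 against HFD-NS became 3 without HFD-338 replicate 18 and ranged from 3 to 6 when each library was left out. The 5 called in HFD-338 against HFD-Res became 3 with recomputed TPM, with recomputed TPM at a pseudocount of 0.1 and with deposited TPM, and ranged from 3 to 5 when each library was left out. All genes called in HFD-Res against HFD-NS numbered 1709, and 1134 without HFD-Res replicate 34. Values that changed sign had not been called: leaving out each library, Apoa4 ranged from -0.8185 (without HFD-337 replicate 23) to 0.0076 (without HFD-NS replicate 12) in HFD-337 and from -0.0495 (without HFD-NS replicate 16) to 0.6501 (without HFD-NS replicate 12) in HFD-Res. Lcat in HFD-NS against SD-NS was 0.0318 with no low-count filter, 0.0139 in a fit of the 2 groups, 0.082 with recomputed TPM, 0.0822 with a pseudocount of 0.1, and ranged from -0.0654 (without HFD-NS replicate 13) to 0.0145 (without HFD-NS replicate 12). The causes were not tested. The median log2 fold change of all genes in HFD-337 against HFD-NS was 0.03, and -0.08 with recomputed TPM. Deposited TPM could not be used in comparisons with HFD-NS, whose columns are not tied to libraries. No paired analysis was possible because each replicate number occurs in 1 group only. With 3 libraries a group, small differences in Apoa4 and Pltp could not be resolved.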
